A study of Drosophila melanogaster with 6 samples.

Results

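The 772 annotated insertions of DNA transposons other than INE-1 were followed in RNA-seq of Drosophila larval salivary glands (SGs). They were chosen by name, as every transposable element entry whose family is 1360, FB, NOF, pogo, mariner2, Tc1, Tc1-2, Tc3, Bari1, Bari2, S, S2, HB, hopper, hopper2, looper1 or transib1 to transib4. The rule itself uses no measured value, but it was set with earlier results of these data known. They make up 772 of 5578 transposable element entries and of 23932 entries in all. The names hobo and P were part of the rule and matched no entry. The 59 entries named H, the symbol FlyBase uses for hobo, were not counted as members.

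DNA transposons move as DNA. A transposase encoded by an intact copy cuts the element out at its terminal inverted repeats and pastes it elsewhere, and most copies in a genome are internally deleted relics that encode no enzyme. In the fly, 1360 is related to the P element, pogo, mariner, Tc1, Bari, S and HB elements belong to the Tc1/mariner superfamily, transib elements are related to the source of the vertebrate RAG recombinase, and FB is a foldback element with long inverted repeats that sometimes carries NOF. Many copies lie inside introns, where they are transcribed as a piece of the gene around them, and 1360 is abundant on the small, heterochromatin-rich chromosome 4.

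The study asked what the loss of *de2f1b* changes in SGs, which grow by endoreplication. The libraries were 2 of *w1118*, the control strain (biological replicates 1 and 4), and 4 of *de2f1b* (biological replicates 1 to 4), all from SGs of L3 larvae. The *de2f1b* allele removes 1 isoform of the activator E2F1 from the whole animal, and the sources used here do not say which allelic combination was sequenced. The values are normalized counts, the reads on an entry divided by 1 size factor per library. An entry was tested with limma on log2(normalized count + 1) if its normalized count reached 10 in at least 2 libraries.

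Between 56495956 and 94907006 reads per library lay on the table's entries, and 3 reads, the most that a count of 0 allows at 95% confidence, were worth a normalized count of 2.35 to 4.11. E2f1 as a whole gene read 12544 and 18666 in *w1118* and 12896, 10267, 9304 and 7190 in *de2f1b* (limma log2 fold change −0.66, SE 0.27, adjusted p = 0.23). This total holds the reads of every isoform. All 9 salivary gland markers and all 6 fat body markers reached 10 in all 6 libraries. The summed salivary gland markers read 1.14e+07 and 2.26e+07 in *w1118* and 8.60e+06 to 2.09e+07 in *de2f1b*. The summed fat body markers read 4.41e+06 and 4.81e+06 in *w1118* and 2.94e+06 to 5.78e+06 in *de2f1b*. Muscle markers summed to 25841 and 10351 in *w1118* and to 29730, 24842, 55912 and 100251 in *de2f1b* replicates 1 to 4. The summed ring gland markers read 4183 and 6458 in *w1118*, 7416 and 8631 in *de2f1b* replicates 1 and 2, and 17306 and 22891 in replicates 3 and 4, with each of the 8 genes at 10 or more in the latter pair. The summed midgut markers reached 458047 in *de2f1b* replicate 1 and 53270 in replicate 3 against 9.59 and 188 in the other 2 *de2f1b* libraries and 13.7 and 33.4 in *w1118*, and the testis markers reached 1669 in *de2f1b* replicate 3 against 104 to 262 elsewhere. The part of these other tissues in the counts of the insertions was not tested, and values without replicates 3 and 4 are given where a call or a direction changed or a value moved by over 1.5 times, here or in the closing section.

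Few reads were assigned to the insertions in either genotype. They took 2839 and 2678 reads in the *w1118* libraries and 2868, 1973, 3129 and 2767 reads in the *de2f1b* libraries, which is 0.00282% to 0.00535% of all reads. Of the 772 insertions, 423 had no read in any library, 291 had reads but stayed below the filter, and 58, from 11 families, were tested. A member with no read can still have been transcribed below the limit that a count of 0 sets, and such counting limits cover counting error only. The reads give no view of which insertions the 2 strains carry, so an insertion missing from a strain's genome and one not transcribed there cannot be told apart. Copies of a family share sequence, and how reads that match several copies were counted is not given in the sources used here. The value of one copy, the family and class sums and the share of all reads may therefore be uncertain, and few reads do not show silence.

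Summed over all 772, the normalized count was 2367 and 2455 in *w1118* and 3825, 2703, 2830 and 2164 in *de2f1b*. The groups overlapped, with *de2f1b* replicate 4 lowest of all 6 libraries and *de2f1b* replicate 1 highest. The means were 2411 ± 61.9 (SD, n = 2) and 2880 ± 693 (SD, n = 4), a log2 difference of 0.23 with an exact two-sided permutation p = 0.467. The difference was 0.08 without *de2f1b* replicate 1, 0.35 without replicate 4, 0.42 without replicates 3 and 4 together, 0.48 without the most abundant copy pogo{}4759, 0.60 outside annotated genes and 0.38 with libraries scaled to the same total. With 2 against 4 libraries there are 15 splits, so this test cannot go below 0.0667.

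The other classes of mobile element differed more between the genotypes in the same libraries, and no class passed the exact test. INE-1, the most numerous relic of the fly genome, summed to 3278 and 2851 in *w1118* and to 7129, 4333, 4147 and 3089 in *de2f1b* (log2 difference 0.54, exact permutation p = 0.267). The 2571 remaining elements, mainly retrotransposons, summed to 16278 and 14950 in *w1118* and to 32349, 23983, 20652 and 19248 in *de2f1b*, with no overlap (log2 difference 0.60, exact permutation p = 0.133). The DNA transposon sum was 0.145 and 0.164 of that of these elements in *w1118* and 0.118, 0.113, 0.137 and 0.112 of it in *de2f1b*. This ratio was lower in all 4 mutant libraries than in both controls (log2 difference −0.37, exact permutation p = 0.0667, the smallest possible). Against INE-1 it was 0.722 and 0.861 in *w1118* and 0.537, 0.624, 0.682 and 0.701 in *de2f1b*, also without overlap (log2 difference −0.32, exact permutation p = 0.133). Over insertions outside annotated genes alone the log2 differences of the ratios were 0.06 against INE-1 and 0.01 against the remaining elements. Without the most abundant member, pogo{}4759, they were −0.06 and −0.11.

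**Figure D1:**
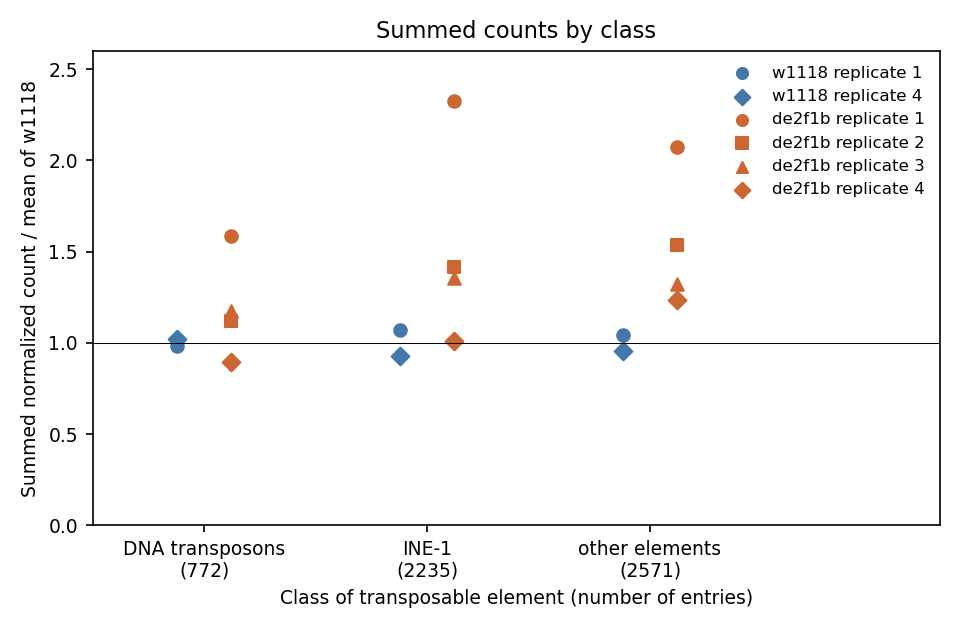
Summed normalized count of each class of transposable element in each library, divided by the mean of the 2 *w1118* libraries (points, 1 per library, linear axis from 0, number of entries under each class). The DNA transposons of *de2f1b* lie on both sides of the control mean, and *de2f1b* replicate 1 is the highest library in each of the 3 classes.

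Of the 58 insertions tested, 2 rose in *de2f1b* and none fell (limma, adjusted p under 0.05 over 11099 features). That is 3.45% of those tested, against 4.24% of all features (3.17% higher and 1.07% lower), so the members were called about as often as any feature. Of these 2 insertions 1360{}3604 passed the filter through *de2f1b* alone, and 1 call was among the 36 that reached 10 in both genotypes. At an unadjusted limma p under 0.05, 12 were higher and 7 lower, against 12.5% and 9.09% of all features. The quasi-likelihood test of edgeR on the recovered reads called 2 higher and 1 lower (1.78% and 0.802% of all features), and DESeq2 8 higher and 3 lower (9.8% and 5.01%). In simulated data of this design, with the same dispersion for every feature, 17.39% of the DESeq2 calls were false, against 4.965% of those of limma. These rates cover all 11099 features and need not hold at the low counts of the insertions. Limma without the intensity trend called 7 higher and 2 lower (3.61% and 0.811%), and without the filter 1 higher and 1 lower (1.17% and 0.4%). The groups did not overlap for 19 insertions that were higher and 9 that were lower, against 17.4% and 16% of all features. A low insertion can pass the filter through 1 genotype alone, and then has to differ: 16 of the 58 passed with no control library at 10, and 6 with no mutant library at 10. Among the 36 that reached 10 in both groups, 5 were higher and 3 were lower without overlap, and their median log2 fold change was 0.33, against 0.02 over all features.

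**Figure D2:**
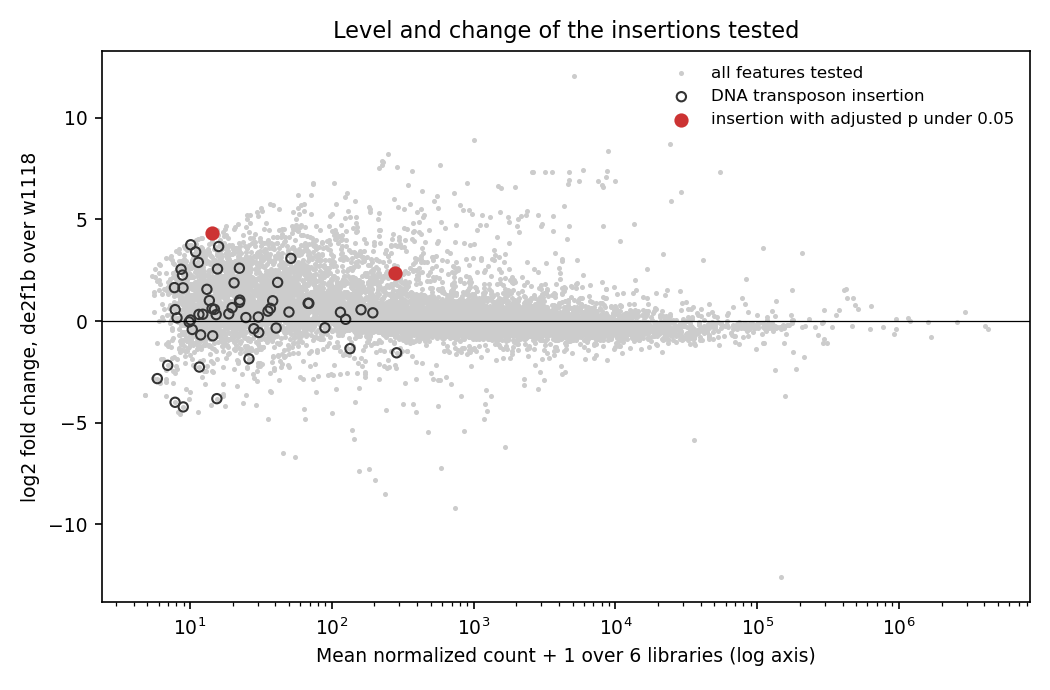
Mean normalized count plus 1 over the 6 libraries (log axis) against the limma log2 fold change of *de2f1b* over *w1118*, for all 11099 features (grey) and the 58 insertions (open circles, red if called). The insertions lie at the low end of the levels, between log2 fold changes of −4.22 and 4.31, and both called insertions are higher in *de2f1b*.

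The called insertion with the smallest p was a single copy of mariner2, a Tc1/mariner element. The insertion mariner2{}1523 (FBti0020428) lies on chromosome 4 from 647526 to 648281 on the plus strand (BDGP6), outside any annotated gene and 760 bp from gw, which encodes the GW182 protein of microRNA silencing. It read 71.7 and 66.0 in *w1118* and 526.9, 441.1, 298.4 and 253.4 in *de2f1b*. Every mutant library was above both controls, and replicates 3 and 4, those high in ring gland markers, were the lower pair. The means were 68.9 ± 4.04 (SD, n = 2) and 379.9 ± 126 (SD, n = 4), a limma log2 fold change of 2.39 (SE 0.36, adjusted p = 0.0209). The neighbouring gw read 16166 and 16883 in *w1118* and 12351 to 20026 in *de2f1b* (limma log2 fold change −0.07, SE 0.21, adjusted p = 0.86). The call was lost when *w1118* replicate 1 or 4 or *de2f1b* replicate 1 or 2 was left out (limma adjusted p = 0.0945, 0.189, 0.0601 and 0.0636), with log2 fold changes of 2.21 to 2.56 over all such fits, and it held without *de2f1b* replicates 3 and 4 together (log2 fold change 2.79, limma adjusted p = 0.0391). This copy held 97.4% of the counts of the 23 mariner2 insertions, which summed to 72.5 and 68.7 in *w1118* and to 265.9 to 537.5 in *de2f1b*, a 5.25-fold difference.

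The second called insertion was a short fragment of 1360. The 91 bp of 1360{}3604 (FBti0061665) lie in an intron of d4, which encodes a PHD finger protein of chromatin, on its strand, on chromosome 2R from 5264978 to 5265068. It had no read in either *w1118* library and a normalized count of 20.01, 21.9, 9.95 and 28.2 in *de2f1b*. All 4 mutant libraries had reads, 78 in all. With 3 reads per control library as the limit, the *de2f1b* mean was at least 7.62-fold higher (limma adjusted p = 0.0346). No control library reached 10, so this copy passed the filter through *de2f1b* alone, which required a difference in that direction. The gene d4 itself read 1630 and 1781 in *w1118* and 2047 to 2420 in *de2f1b* (limma log2 fold change 0.39, SE 0.14, adjusted p = 0.183). The call was lost without any 1 library except *de2f1b* replicate 3, with limma adjusted p of 0.127 and 0.22 without *w1118* replicate 1 or 4 and 0.109, 0.0912 and 0.105 without *de2f1b* replicate 1, 2 or 4, and without *de2f1b* replicates 3 and 4 together (0.0687).

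Among the other 1360 copies, values moved in both directions without passing the test. The copy 1360{}1617, on chromosome 4, shares 1120 bp with exons of lncRNA:CR46488 on the other strand and 1123 bp with the neighbouring entry 1360{}1619. It read 0.834 and 0 in *w1118*, a single read in all, and 16.0, 5.48, 16.3 and 21.1 in *de2f1b*. The ratio of 36.2 has a 95% exact counting interval of 6.25 to 1451 (limma adjusted p = 0.0913). No control library reached 10, so this copy passed the filter through *de2f1b* alone. The lncRNA that it overlaps rose, from 33.4 and 10.1 in *w1118* to 463, 401, 405 and 628 in *de2f1b* (limma log2 fold change 4.58, SE 0.49, adjusted p = 0.00641). Because whether the counting used strand is not given in the sources used here, reads of the lncRNA and of the insertion cannot be told apart. A further copy on chromosome 4, 1360{}1620, read 15.8 and 11 in *w1118* and 62.7, 72.6, 36.2 and 44.6 in *de2f1b* (limma adjusted p = 0.0982). It lies 1505 bp from Crk, an adaptor protein gene, and it is named here after its values were seen.

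Of the 1360 copies that were lower, 1360{}5000 (FBti0063061) lies in an intron of conu, which encodes the RhoGAP conundrum, on the gene's strand. It read 35.0 and 11.9 in *w1118* and 0, 0, 0 and 0.782 in *de2f1b*, where a single read remained in replicate 4. By reads it was 92.8-fold lower, with a 95% exact counting interval of 16.0 to 3731 (limma adjusted p = 0.0779). The host gene fell, and conu read 4901 and 5403 in *w1118* and 405, 1151, 470 and 1247 in *de2f1b* (limma log2 fold change −2.83, SE 0.51, adjusted p = 0.0352). A second copy in conu, 1360{}4999, which touches 33 exon bases on the opposite strand, read 11.7 and 13.7 in *w1118* and 2.67, 0, 4.52 and 3.13 in *de2f1b*. On chromosome 4, 1360{}6069 in an intron of Hcf, a gene for a chromatin cofactor, read 34.2 and 13.7 against 5.33, 5.48, 2.71 and 2.35, while Hcf read 5628 and 5915 against 4837 to 5715. The intergenic 1360{}1627 read 13.3 and 11 in *w1118* and 0, 0, 1.81 and 3.13 in *de2f1b*, and neither of these passed the test (limma adjusted p = 0.173 and 0.196). No mutant library reached 10 for any of these lower 1360 copies, so they passed the filter through *w1118* alone.

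The 305 copies of 1360 together summed to 924 and 789 in *w1118* and to 1490, 1062, 1182 and 900.1 in *de2f1b*. The groups overlapped, and the log2 difference was 0.42 (exact permutation p = 0.267). The highest value per length among the named copies was that of 1360{}4545, a fragment of 56 bp, at 3457 per kb against 365 per kb for mariner2{}1523. Reads can extend beyond so short an entry, so these values per kb are not comparable. The mean counts over the 6 libraries were 194 for 1360{}4545 and 276 for mariner2{}1523. The copy 1360{}4545 read 158 and 130.2 in *w1118* and 419, 179, 175 and 99.3 in *de2f1b*, with *de2f1b* replicate 1 far above the rest and replicate 4 below both controls. The copy 1360{}4747, 254 bp from ci, the Hedgehog pathway transcription factor, read 67.5 and 12.8 in *w1118* and 18.7, 26, 161 and 117 in *de2f1b*. Its 2 high libraries were *de2f1b* replicates 3 and 4, and without that pair its log2 fold change turned from 0.87 to −0.42.

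Pogo read lower in *de2f1b*. The copy pogo{}4759 (FBti0062820), on chromosome 2L from 21539460 to 21540930 within the histone pseudogene His-Psi:CR33867, read 387 and 632 in *w1118* and 220.1, 130.1, 220.7 and 123 in *de2f1b*. Pooled over the 6 libraries it carried 10.5% of the sum of all members, the highest share of a single copy, although mariner2{}1523 was above it in each *de2f1b* library. Both controls were above all 4 mutant libraries for pogo{}4759. The limma log2 fold change was −1.56 (SE 0.38) with an adjusted p = 0.0814, while DESeq2 gave an adjusted p of 0.00574. The pseudogene itself read 25.8 and 24.7 in *w1118* and 9.34, 1.37, 4.52 and 0.782 in *de2f1b* (limma log2 fold change −2.74, SE 0.96, adjusted p = 0.175). A copy of 187 bp in an intron of fbp, the gluconeogenic fructose bisphosphatase, named pogo{}421, read 24.2 and 54.1 in *w1118* and 4.00, 1.37, 0 and 3.13 in *de2f1b*. Its reads were 18.6-fold lower (95% exact counting interval 9.02 to 44.3, limma adjusted p = 0.0913), and fbp itself read 10183 and 11900.0 against 5035 to 8887 (limma log2 fold change −0.72, adjusted p = 0.15). No mutant library reached 10 for pogo{}421, which passed the filter through *w1118* alone. The 48 pogo insertions summed to 444 and 729 in *w1118* and to 241, 142, 239 and 129.8 in *de2f1b*, 3.13-fold lower, with 89.0% of the counts from pogo{}4759.

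The Tc1 sum was also lower, mainly through 1 copy, and the sum of the related Tc1-2 was higher. The copy Tc1{}1080, 111 bp from Alp1, an alkaline phosphatase gene, read 184 and 256 in *w1118* and 133, 109.6, 63.3 and 54.0 in *de2f1b*, lower in replicates 3 and 4 than in 1 and 2. Alp1 was likewise lowest in *de2f1b* replicates 3 and 4, with 41460 and 59380 in *w1118* and 33761, 38126, 21162 and 20753 in *de2f1b*, and neither passed the test (limma log2 fold changes −1.36 and −0.86, adjusted p = 0.167 and 0.198). The 26 Tc1 insertions summed to 278 and 318 in *w1118* and to 239, 177, 142 and 107 in *de2f1b* (1.86-fold lower, exact permutation p = 0.133). Tc1{}1080 held 63.5% of these counts, and without it the log2 difference of the sums was −0.048. Of the 5 Tc1 copies tested, 2 had a positive log2 fold change and 3 a negative one. The 24 Tc1-2 insertions summed to 7.5 and 11 in *w1118* and to 13.3, 16.4, 26.2 and 18.0 in *de2f1b*, with no overlap.

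HB, S, Bari1 and transib2 held copies that were low in *w1118* and had reads in every *de2f1b* library. No control library reached 10 for HB{}1219, S{}5868, transib2{}2891, Bari1{}Jheh[Bari1855] or FB{}kek5-FB-NOF. These copies passed the filter through *de2f1b* alone, which required a difference in that direction. HB{}1219, in an intron of Cerk, the ceramide kinase gene, read 6.67 and 5.50 in *w1118* and 141, 38.4, 85.0 and 25.8 in *de2f1b* (limma log2 fold change 3.09, SE 0.77, adjusted p = 0.0847). Cerk read 2813 and 2951 against 2357 to 3876, with a limma log2 fold change of 0.05. S{}5868, in an intron of AGO3, a piRNA-binding Argonaute, on the opposite strand, read 4.17 and 2.75 in *w1118* and 62.7, 20.5, 23.5 and 14.1 in *de2f1b* (limma adjusted p = 0.122). In both copies every mutant library was above both controls. The highest was *de2f1b* replicate 1, followed by replicate 3, the libraries high in midgut markers. The part of midgut in these values was not tested.

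The insertion transib2{}2891, 4642 bp from CG17698, had no read in *w1118* and read 22.7, 9.59, 15.4 and 7.04 in *de2f1b*, at least 5.21-fold higher (limma adjusted p = 0.0665). Bari1{}Jheh[Bari1855], the copy at the juvenile hormone epoxide hydrolase genes, read 3.34 and 0 in *w1118* and 21.3, 12.3, 10.9 and 14.9 in *de2f1b* (limma adjusted p = 0.131). FB{}kek5-FB-NOF, a foldback element with NOF in an intron of the receptor gene kek5 on chromosome X, read 1.67 and 0 in *w1118* and 38.7, 23.3, 11.8 and 14.1 in *de2f1b*. Its ratio of 22.8 rests on 2 control reads and has a 95% exact counting interval of 6.11 to 192 (limma adjusted p = 0.0693), while kek5 read 2683 and 2482 against 1891 to 2973.

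The reverse pattern was seen for S{}AGO2[S1008], a copy of 1732 bp in an intron of AGO2, the Argonaute of the siRNA pathway that acts on transposons. It read 20.01 and 19.2 in *w1118* and 0, 0, 1.81 and 0 in *de2f1b*, where the only 2 reads came from replicate 3. This is 38.0-fold lower by reads, with a 95% exact counting interval of 9.92 to 323 (limma adjusted p = 0.0851). No mutant library reached 10, so the copy passed the filter through *w1118* alone. AGO2 read 25004 and 35064 in *w1118* and 16569 to 23543 in *de2f1b*, a limma log2 fold change of −0.54 that did not pass the test (adjusted p = 0.233).

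**Figure D3:**
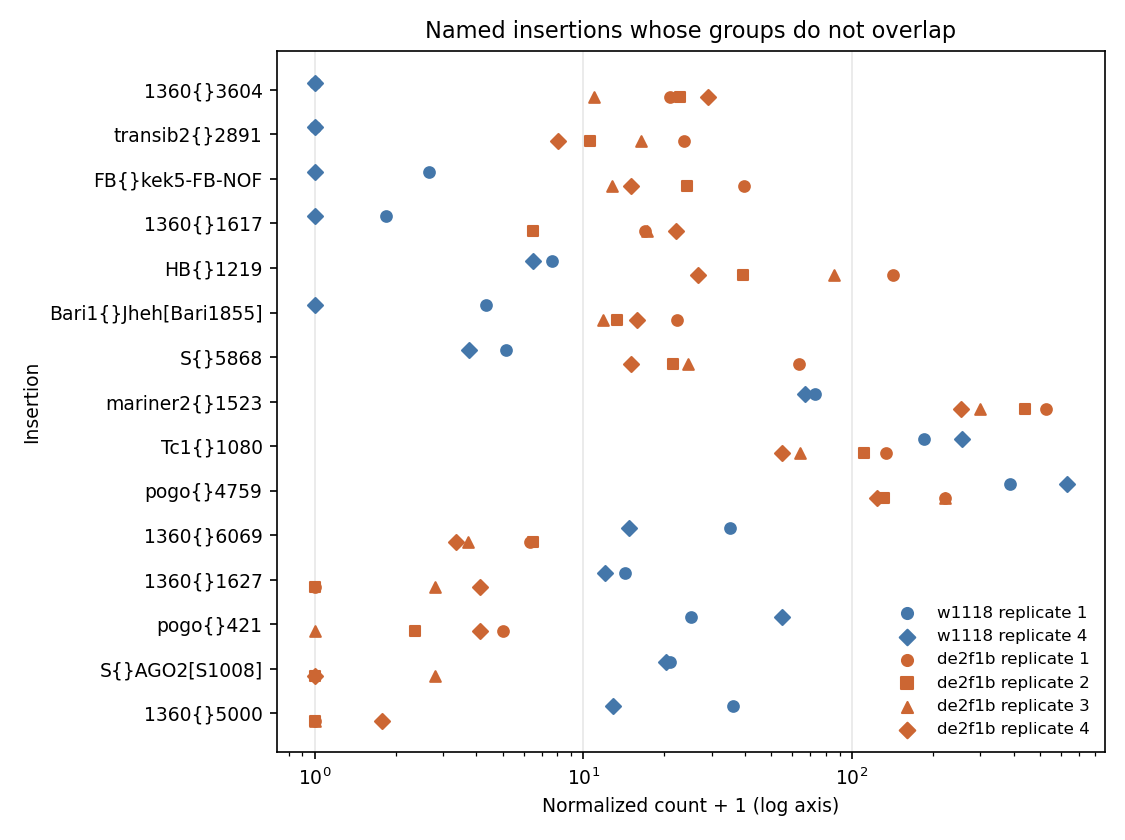
Normalized count plus 1 (log axis) in each library of the 15 named insertions whose *w1118* and *de2f1b* libraries do not overlap (rows ordered by limma log2 fold change, points 1 per library). The top rows start from 0 to 6.67 in *w1118* and the bottom rows end at 0 to 5.48 in *de2f1b*, and mariner2{}1523, pogo{}4759 and Tc1{}1080 change at higher levels.

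Several abundant copies did not differ beyond their spread. FB{}1532, in an intron of the Mediator subunit gene MED26, read 103 and 135 in *w1118* and 156, 129, 105 and 117 in *de2f1b* (limma log2 fold change 0.09, SE 0.31). FB{}5382, in CG33941, read 103 and 79.7 against 153, 91.8, 153 and 104. The intergenic 1360{}3897, 189 bp from CkIIalpha, which encodes the catalytic subunit of casein kinase 2, read 95.9 and 148 against 197, 205.5, 175 and 135. On chromosome 4, 1360{}1546 read 84.2 and 116 against 127, 83.6, 70.5 and 50.1, and 1360{}1539 read 65.0 and 26.6 against 76.0, 76.7, 105 and 57.9. The groups overlapped for all 5, as they did for the leading copies of Tc3 and transib3, with limma log2 fold changes between −0.34 and 0.87 over these 7.

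Over the 13 families whose sums could be tested, 7 reached the smallest p that the exact permutation test allows (0.0667, Benjamini-Hochberg 0.124 over the 13). Bari1, HB, S2, Tc1-2, mariner2 and transib2 were higher in *de2f1b* and pogo was lower. HB, with 61 insertions of which the top copy held 26.4% of the counts, summed to 116 and 89.8 in *w1118* and to 328, 197, 254 and 161 in *de2f1b*, 2.21-fold higher. The sums of Bari1, S2, transib2 and Tc1-2 did not exceed 26.7 in any library and rest on few reads. FB was higher in all 4 mutant libraries than in both controls only by a small margin, with 307 and 279.6 against 579, 379, 392 and 339 (log2 difference 0.49, exact permutation p = 0.2).

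**Figure D4:**
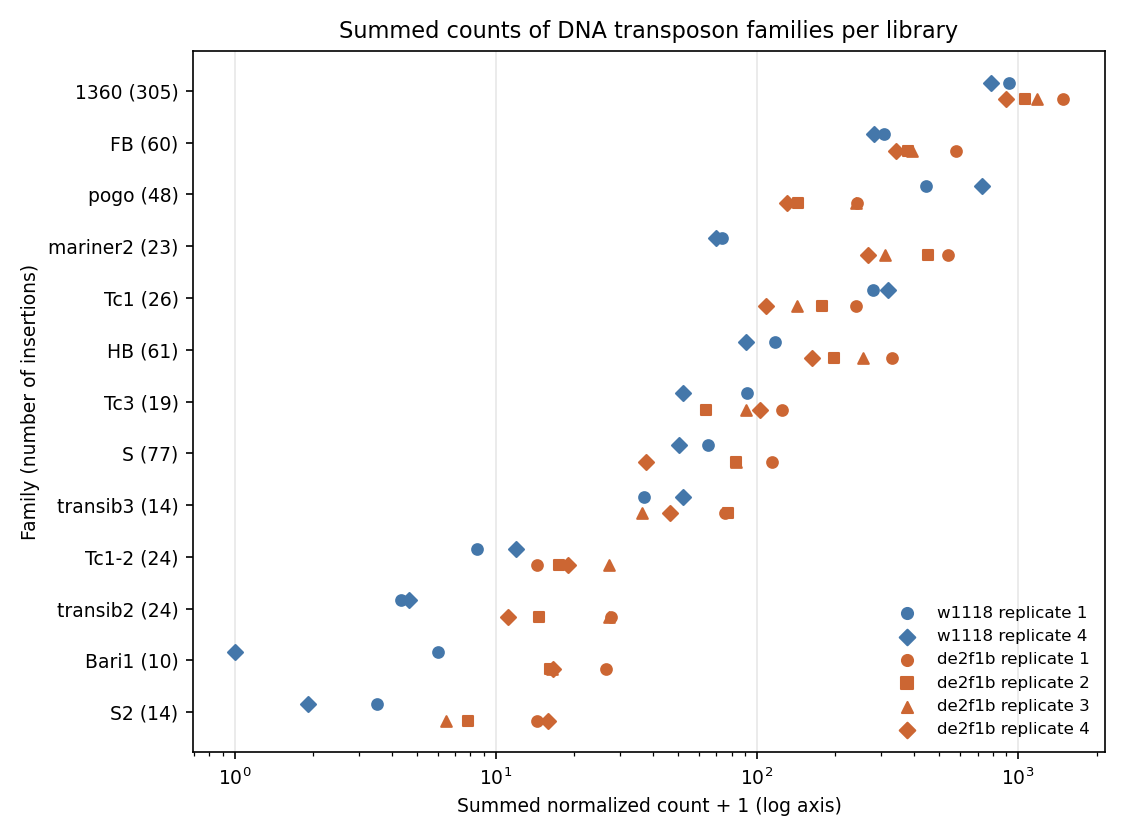
Summed normalized count plus 1 (log axis) of the 13 DNA transposon families tested, in each library (points, 1 per library, number of insertions in parentheses). The *w1118* points lie to the right of all *de2f1b* points for pogo and Tc1 and to the left of them for mariner2, HB, FB, Tc1-2, transib2, Bari1 and S2.

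Position went with detection. Of all 772 insertions, 350 lie in introns, 70 touch exons and 352 are intergenic, and of the 58 tested 36 are intronic, 7 exonic and 15 intergenic. The tested copies had a median length of 1046.5 bp, the copies without a read one of 349 bp. Copies on the strand of the gene around them passed the filter in 33 of 196 cases (16.8%) and those on the opposite strand in 8 of 203 (3.94%). INE-1 copies showed the same order, with 8.03% and 1.55%, whereas the remaining elements passed in 19.8% and 18.2%. The genes around tested copies were themselves the more abundant ones, with a median normalized count of 3780 at the highest host of each copy, against 704 for copies with no read. These are descriptions of which copies were detected, without a test.

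Chromosome 4 held 103 of the 772 insertions (13.3%) and 19 of the 58 tested (32.8%). The members there summed to 807 and 669 in *w1118* and to 1446, 1225, 1197 and 984 in *de2f1b*, and the groups did not overlap (log2 difference 0.71). Without mariner2{}1523 the sums were 735 and 603 against 919, 784, 899 and 730.4, and the groups overlapped. The 669 members on other chromosomes summed to 1560.1 and 1786 in *w1118* and to 2380, 1478, 1632 and 1180.03 in *de2f1b* (log2 difference −0.05). Without pogo{}4759 these were 1173 and 1154 against 2159, 1348, 1412 and 1057, so that without those 2 copies the log2 differences on and off chromosome 4 were 0.32 and 0.31. The splits by chromosome and by site carry no test, and the split by chromosome and the sums without single copies were chosen after the values were seen. By site, the intergenic members summed to 826 and 869 in *w1118* and to 1695, 1355, 1200.1 and 991 in *de2f1b* (log2 difference 0.60), and the intronic ones to 1350 and 1441 against 1905, 1157, 1403 and 1009.5 (log2 difference −0.07). Without mariner2{}1523 the intergenic log2 difference was 0.24, and without pogo{}4759 the intronic one was 0.39, so the order of the 2 sites rests on these copies.

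For 43 tested insertions inside genes, 44 pairs of insertion and gene could be set side by side. The log2 fold changes had the same sign in 33 of the 44 pairs, with a Pearson correlation of 0.54 and a Spearman correlation of 0.55 across pairs, which share libraries and in part reads and are not independent. The median size of the change was 0.87 for the insertion and 0.28 for the gene, and the insertion's counts were a median 0.58% of those of the gene. Some of these insertions are low and passed the filter through a single genotype, which required a difference. The sizes of change of insertion and gene are therefore not compared on equal terms. Of the genes, 4 were called in 5 pairs: conu (with 2 insertions) lower, and lncRNA:CR46488, unc-13, a synaptic vesicle priming factor, and nAChRalpha4, a nicotinic receptor subunit, higher. Over all features 4.24% were called. The called genes were in 4 of the 10 pairs on opposite strands and in 1 of the 34 pairs on the same strand. The insertion in unc-13, 1360{}1539, had a limma log2 fold change of 0.87 and the gene one of 1.15 (adjusted p = 0.0482). The insertions with the widest gap to their gene, 1360{}3604 in d4, FB{}kek5-FB-NOF in kek5 and S{}AGO2[S1008] in AGO2, differed from it by 3.92, 3.79 and −3.45 on the log2 scale. Each of these passed the filter through a single genotype and had to differ in its direction.

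**Figure D5:**
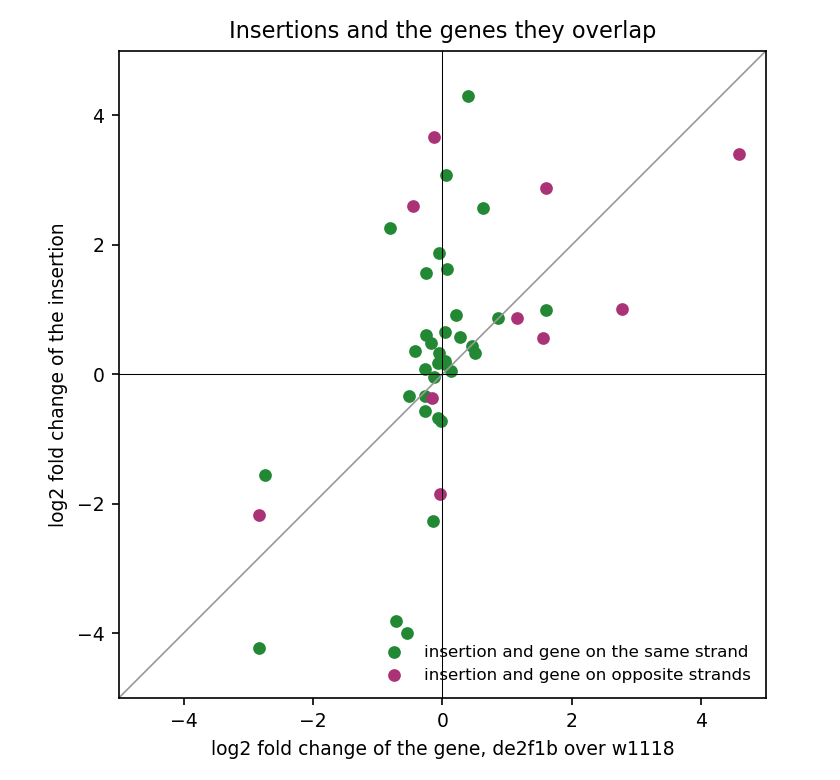
Limma log2 fold change (*de2f1b* over *w1118*) of each tested insertion (vertical) against that of the gene it overlaps (horizontal), 44 pairs, coloured by strand, with the line of equal change in grey. Most genes lie near 0 while their insertions spread from −4.22 to 4.31. Some of these insertions passed the filter through a single genotype, which required a difference. At the lower left conu and at the upper right lncRNA:CR46488 moved the same way as their insertions, whose own tests did not pass.

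Genes that silence transposons were read in the same libraries. Of 43 listed genes of the piRNA and siRNA pathways and of heterochromatin, 39 were found and 38 tested, and 2 rose while none fell (limma, adjusted p under 0.05; 10 higher and 4 lower at an unadjusted p under 0.05). Over all features 3.17% were called higher and 1.07% lower, and 12.5% and 9.09% at the unadjusted p. The median log2 fold change was 0.30, against 0.02 over all features. Moonshiner (moon), a germline factor for transcription of piRNA clusters, read 5 and 0 in *w1118* and 111, 49.3, 87.7 and 74.3 in *de2f1b* (limma log2 fold change 4.998, SE 0.82, adjusted p = 0.0269). Gasz, a mitochondrial protein of piRNA processing, read 256 and 263 in *w1118* and 600.2, 529, 536 and 499.7 in *de2f1b* (limma log2 fold change 1.05, SE 0.19, adjusted p = 0.0336). The groups did not overlap for 12 of the 38 genes that were higher and 6 that were lower, against 17.4% and 16% of all features. The germline genes aub, del and vas were highest in *de2f1b* replicate 3, the library with high testis markers, at 229.7, 219.8 and 74.2. In the other *de2f1b* libraries aub read 36.8 to 69.4 and vas 5.47 to 15.1, still above both controls (at most 8.25 and 3.34). For del the groups overlapped. The part of testis in these values was not tested. AGO2 and AGO3 had limma log2 fold changes of −0.54 and −0.46 and were not called, and piwi read 0.917 to 29.8.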

How the data were processed

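The authors aligned paired-end RNA-seq reads with STAR 2.7.6a, counted them with featureCounts 1.6.0 (release 102 annotation) and compared the genotypes with DESeq2. How reads with several alignments, overlapping features and strand were counted is not given in the sources used here. The deposited signal of a library holds its read counts over a single size factor, and whole reads were recovered for 100% of values. The authors also deposited the mean signal, log2 fold changes, their test score and p-values, which were not used. Positions and host genes were taken from the BDGP6.54 annotation (Ensembl release 115), the same assembly as the labels name.

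Entries reaching a normalized count of 10 in 2 or more of the 6 libraries were tested (11099 features) with limma 3.58.1 in R 4.3.3 on log2(value + 1), with an intensity trend, genotype alone, a two-sided test and adjustment by Benjamini-Hochberg over all features, and called under 0.05. The edgeR 4.0.16 and DESeq2 1.42.0 tests on the recovered reads were alternatives. Sums over members were compared by an exact permutation test over libraries, and count ratios carry exact 95% intervals. A fold against a group at 0 uses 3 reads per library there and the mean of the other group. The 3 tests were tried on simulated data of this design with the same dispersion for every feature. Of the calls at adjusted p under 0.05, 4.965% were false with limma, 2.878% with edgeR and 17.39% with DESeq2. The second-highest library value was 10.7 in the member just inside the filter and 9.95 in that just outside. Named insertions are those called, the 10 with the highest mean, the highest tested copy of each family, and the 5 largest rises and falls without overlap, with their host genes. The members, lists and tests were chosen with earlier results of these data known. Of the per-sample columns 0 were left unused. No sequences are printed, since no genome sequence was used here.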

Additional observations from a re-analysis of the deposited data

Results flagged for a closer look

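Within the 4 *de2f1b* libraries, 3 of 40 results had 1 library set far apart from the others, by Dixon's test of its gap over the range, where chance gives about 2. For 1360{}5000 the gap was 1, because *de2f1b* replicate 4 held the only read (a normalized count of 0.782). For S{}AGO2[S1008] the gap was also 1, because *de2f1b* replicate 3 held the only reads (1.81). For the summed Bari1 insertions the gap was 0.929, with *de2f1b* replicate 1 at 25.3. Neither of the *w1118* libraries could be examined in this way, since a group of 2 has no such test.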

How the results depend on the processing

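Alternatives that changed the number of insertions called are given first. The 2 higher insertions became 1 with a pseudocount of 10, 1 without the filter on low values (349 tested), 1 at a mean of at least 100 (7 tested), 7 with limma without the trend, 8 with DESeq2, 1 without *de2f1b* replicates 3 and 4 together (added after seeing the data), and 0 to 2 when 1 library was left out. The 0 lower insertions became 1 without the filter (pogo{}308, 8.34 and 12.8 in *w1118* and 0 in all 4 *de2f1b* libraries), 2 with limma without the trend, 1 with edgeR and 3 with DESeq2, and stayed at 0 when 1 library was left out. Whether the replicate numbers pair the libraries could not be decided, since with 2 controls their deviations mirror each other. Deviations of same-numbered libraries correlated at −0.32 and −0.36. With the replicate block 0 insertions were higher and 0 lower. Replicates 2 and 3 exist in *de2f1b* only, so that fit left almost no residual degrees of freedom and could hardly call any.

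The log2 fold change of 1360{}1546 turned to 0.061, that of 1360{}4747 to −0.42 and that of Tc3{}5089 to 0.056 without *de2f1b* replicates 3 and 4. Without that pair, values that moved by over 1.5 times were the sum of all members (0.42), 1360{}4545 (0.93), FB{}1532 (0.26), Tc1{}1080 (−0.84), transib3{}RR41953 (0.99) and the sums of S (0.77), transib3 (0.80) and Tc1 (−0.53). Leaving out 1 library, 1360{}4747 ranged from −0.28 to 2.03 and FB{}1532 from −0.10 (−0.02 without *de2f1b* replicate 1) to 0.28. The ratio of the DNA transposon sum turned to 0.057 against INE-1 and 0.0068 against the other elements over insertions outside genes. The FB sum turned to −0.28 outside genes, and the S and transib3 sums to −0.22 and −0.22 without their top copy. Of 391 values of the 24 named insertions under alternatives, 357 kept direction and side of the threshold. Of 143 values of the 13 family sums 140 kept their direction, and their exact test could not pass 0.05 under any setting. Scaling libraries to the same total moved the median of all features by 0.15 on the log2 scale. The cause of these changes was not tested. The tested insertions had a median of the mean normalized count of 14.8, against 651 over all features.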
